A study of Homo sapiens with 2 samples.

Results

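The 59 genes described here encode the initiation and elongation factors that drive protein synthesis in the cytosol, together with the proteins that bind or modify them. They were chosen by name and by level. Of the 58174 genes in the deposited tables, 63 protein-coding genes carried an EIF1 to EIF6 or EEF1 to EEF2 name, the kinases of the EIF2AK family set aside, and the 59 with at least 1 TPM in PLC-8024-CTR or PLC-8024-GDF1 cells were kept. TPM is a transcript abundance scaled by transcript length and by the library total, so that levels can be set side by side between genes. A further 135 names of pseudogenes were left out, of which 13 reached 1 TPM. All 59 genes had at least 1 TPM in both libraries, and the lowest of them was EEF1AKMT3 in PLC-8024-CTR cells (1.66 TPM) and EIF4E in PLC-8024-GDF1 cells (1.27 TPM). EIF5AL1, a copy of EIF5A, lay just under the minimum with 0.840 and 0.722 TPM, and EIF4E1B and EIF4E3, relatives of EIF4E, were left out as well.

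PLC-8024 is a human hepatocellular carcinoma (HCC) cell line. PLC-8024-GDF1 cells overexpress GDF1, a secreted ligand of the TGF-β superfamily, after stable lentiviral transfection and puromycin selection, and PLC-8024-CTR cells carry the control vector. They are called GDF1 cells and control cells below. The RNA-seq data comprise 1 library of each, so every difference below lies between these 2 libraries, has no replicate check and no p-value, and cannot be told apart from differences between the 2 cell populations. TPM keeps no sequencing depth, so no counting error is given. In such bulk RNA, less RNA per cell and fewer cells that express a gene cannot be told apart.

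Each change below is log2((TPM + 1)/(TPM + 1)), GDF1 cells over control cells, and "rose" and "fell" are used only past 2-fold on this scale. GDF1 itself was listed at 2.10 TPM in control and 4.64 TPM in GDF1 cells, and CERS1, whose span contains GDF1, at 13.3 and 9612 TPM. The median change of the 14929 genes with at least 1 TPM was -0.20, so 0 is not the centre of the comparison. All 9 hepatocyte markers examined reached 1 TPM, and their sum was 11129 TPM in control and 6841 TPM in GDF1 cells, with 5 of the 9 past 2-fold lower, where 9.61% of all genes were. Of 7 markers of immune, endothelial and mesenchymal cells, 3 reached 1 TPM, none above 33.1 TPM. They were the macrophage marker CD68 (33.1 and 13.2 TPM), the endothelial marker PECAM1 (23.2 and 22.2 TPM) and the fibroblast marker COL3A1 (3.22 and 1.23 TPM). PTPRC, a leukocyte marker, and VWF, another endothelial marker, were listed at 0 in both libraries. Under 1 TPM but higher in GDF1 cells were COL1A1, another fibroblast marker (0.205 and 0.843 TPM), and PDGFRB, a pericyte and stellate cell marker (0.374 and 0.514 TPM).

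Translation starts when eIF2 delivers the initiator tRNA to the small ribosomal subunit, which eIF3, eIF1 and eIF1A prepare for loading. The eIF4F complex, made of the cap-binding protein eIF4E, the scaffold eIF4G and the helicase eIF4A, brings the capped mRNA, and eIF5 and eIF5B take part in start-codon selection and joining of the large subunit. During elongation eEF1A delivers each aminoacyl-tRNA, the eEF1B complex recharges eEF1A with GTP, and eEF2 moves the ribosome along. Many mRNAs of this machinery begin with a C followed by a run of pyrimidines, the 5′ terminal oligopyrimidine (TOP) sequence through which mTORC1 signalling controls their own translation in human cells.

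The starts of 46 of the 59 genes could be read from the RefSeq promoter table (GRCh38.p14). A TOP-like run, defined as a C within 3 bases of an annotated start and at least 4 further C or T, was present in 17 of these 46 genes (37.0%), against 4374 of the 27305 genes in the table (16.0%). The windows of 30 bases below, 10 before the annotated start and 20 from it on, show the run in capitals for abundant factors and for EIF3F and EIF4A2, the members with the highest and the lowest change. EIF3A and EEF1A2 were not among the 46. A gene counted if any of its annotated starts held the run. EEF1B2 had 2 annotated starts, and the start not shown held no run.
EEF1A1: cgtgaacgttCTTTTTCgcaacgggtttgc
EEF2: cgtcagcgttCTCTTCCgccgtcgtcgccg
EEF1B2: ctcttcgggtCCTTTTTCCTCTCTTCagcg
EIF3F: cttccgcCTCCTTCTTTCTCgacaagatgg
EIF4A2: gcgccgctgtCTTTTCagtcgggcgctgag
EIF3K: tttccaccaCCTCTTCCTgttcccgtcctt
EIF3M: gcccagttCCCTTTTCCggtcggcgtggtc
EIF3D: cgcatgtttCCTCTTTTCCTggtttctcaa
EIF2S3: gatttccttCCTCTTTTggcaacatggcgg
The next windows, of a helicase paralog, an eEF1B subunit and the cap-binding protein, held no such run.
EIF4A1: ggcactccgccctagtttctaaggatcatg
EEF1G: cgggcggcttactttgcggcagcgccgaga
EIF4E: tggagcggttgtgcgatcagatcgatctaa
Genes with and without the run had similar median changes in these libraries. The 17 genes with it had a median change of -0.34, and their values spanned from EIF4A2 at -1.59 to EIF3F at 1.65, the whole range of the members. The 29 genes without it had a median of -0.37. The 13 members missing from the promoter table had a median of 0.13, with 7 values above 0, and are not part of this comparison. A match is a description of the annotated start and not of the start used in PLC-8024 cells.

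On the deposited scale the 59 genes together summed to 14859 TPM in control and 12585 TPM in GDF1 cells, which was 1.49% and 1.26% of all TPM. EIF3F and EEF1A2 rose past 2-fold, 2 of 59 members (3.39%), where 4.82% of all genes did so. EIF4A2 and EIF3A fell past 2-fold, again 2 of 59 (3.39%), where 9.61% of all genes did so. The other 55 members stayed within 2-fold. The median member change was -0.34, below the all-gene median of -0.20 and the protein-coding median of -0.25. Of the 59 members, 33 lay below the all-gene median. The values were 14 above 0 and 45 below 0 (76.3%), where 63.3% of all genes and 67.4% of protein-coding genes were below 0. With TPM rescaled so that the median gene does not change, 26 values were above 0 and 33 below. The sign of a small change in a single gene thus depends on the scaling.

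**Figure D1:**
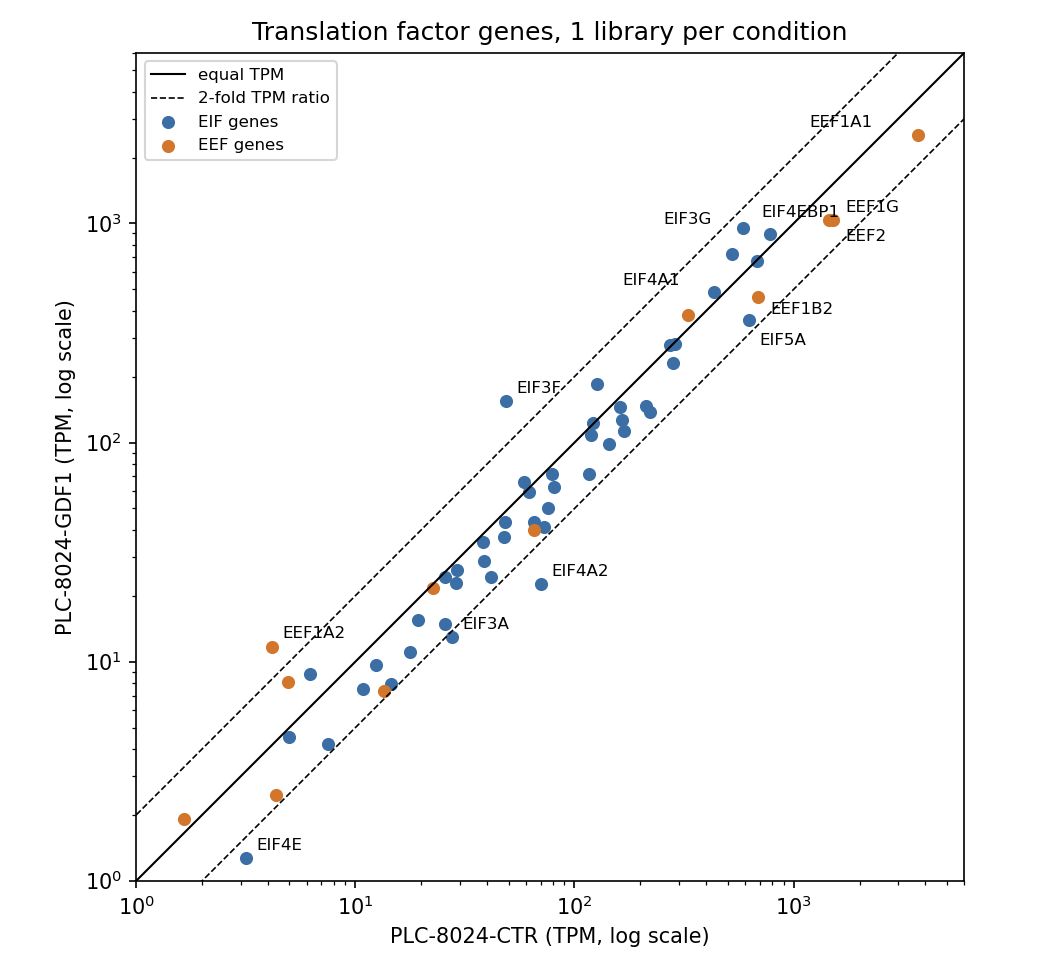
TPM of each of the 59 genes in control (x axis) and GDF1 (y axis) cells, both on log scales, 1 library per condition. The solid line marks equal TPM and the dashed lines a plain 2-fold ratio: EIF3F and EEF1A2 lie above the band, EIF4A2, EIF3A and EIF4E below it, and EEF1A1, EEF2 and EEF1G, the 3 most abundant in control cells, lie below the line of equal TPM.

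Grouped by name, the lower summed TPM on the deposited scale lay in the EEF genes. The 12 EEF genes went from 7771 to 5534 TPM, a log2 ratio of -0.49. The 47 EIF genes summed to 7088 TPM in control and 7050 TPM in GDF1 cells, a log2 ratio of -0.01. They include EIF5A (627 and 361 TPM), an elongation factor by role, so this near-constant sum is not that of initiation factors alone. Rescaled TPM raises every sum of GDF1 cells by a factor of 1.15. The EEF sum then stays below that of control cells, and the EIF sum lies above it. The groups of EIF genes behind the sum differed. The eIF3 subunits summed to 2874 and 3351 TPM, whereas subunit joining and eIF5A summed to 1340 and 1061 TPM. The sums of eIF2 with eIF2B (581 and 487 TPM), the scanning group (288 and 215 TPM) and the eIF4F group (1913 and 1850 TPM) were also lower in GDF1 cells on the deposited scale. The eIF4F group includes the inhibitor EIF4EBP1 (779 and 895 TPM), and the 5 core genes of eIF4F summed to 692 and 633 TPM. By the median change, the eIF4F group (-0.57), the eEF1 and eEF2 group (-0.54) and the scanning group (-0.42) lay below the all-gene median, and the eIF3 subunits (-0.08) above it.

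**Figure D2:**
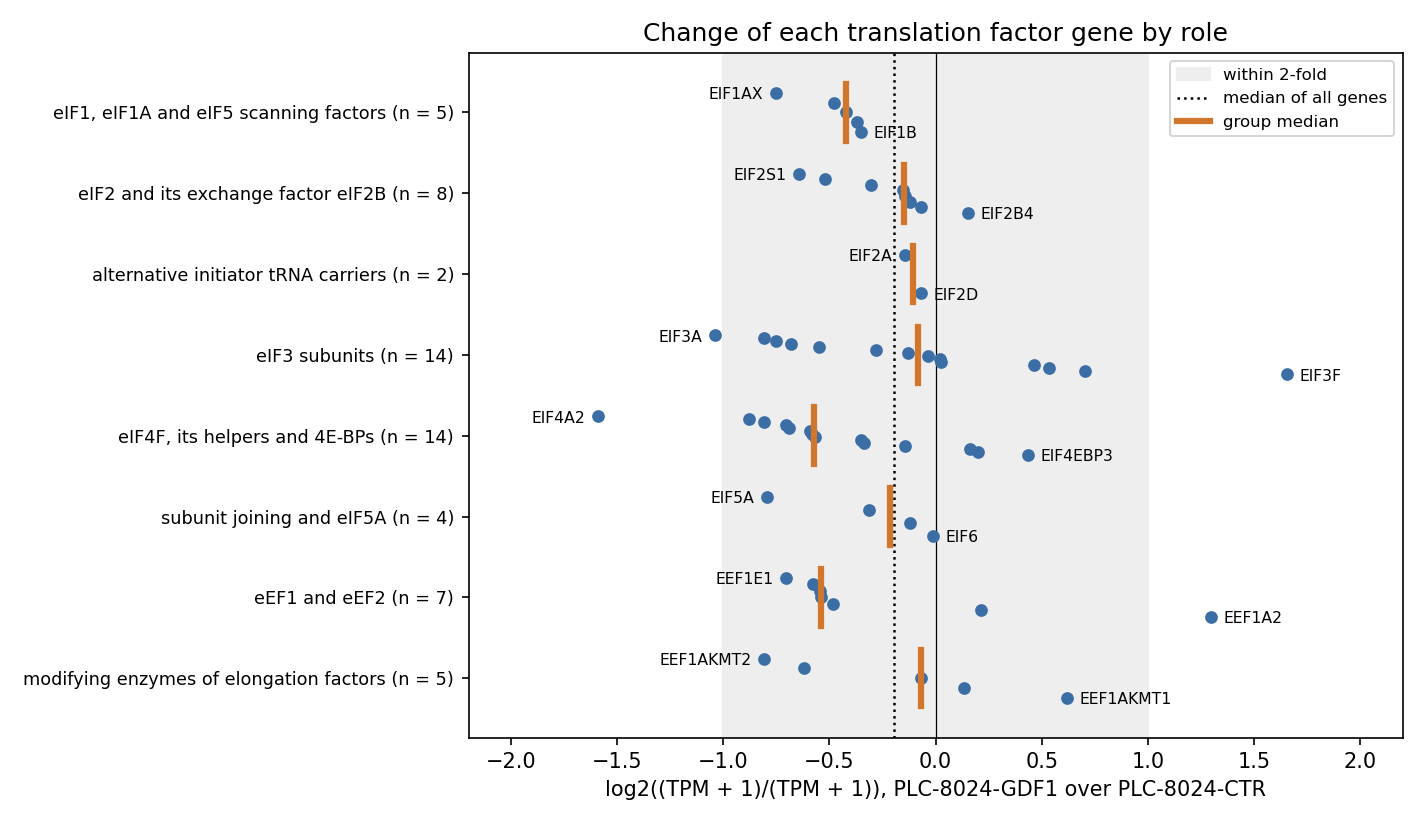
Log2 change of each of the 59 genes by role, with the group median as an orange bar, the median of all genes (-0.20) as a dotted line and the 2-fold range in grey. All 5 genes of the scanning group lie to the left of the dotted line, while the 14 eIF3 genes spread from EIF3A at -1.04 to EIF3F at 1.65. With rescaled TPM every point moves right by about the distance from the dotted line to 0. The medians of eIF2 with eIF2B, eIF2A with eIF2D, eIF3 and the modifying enzymes then turn positive.

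In the group of scanning and start-codon selection factors, where EIF1AD was placed by its name only, all 5 genes had values below the all-gene median. EIF1AX (ENSG00000173674), which encodes eIF1A, was listed at 25.7 TPM in control and 14.8 TPM in GDF1 cells, a change of -0.75. EIF1, the factor that keeps non-AUG codons from being chosen, was far more abundant, with 165 and 127 TPM (-0.37), and its paralog EIF1B had 47.7 and 37.2 TPM (-0.35). EIF1AD, named for an eIF1A-like domain, had 38.8 and 28.7 TPM (-0.42). EIF5, the GTPase-activating protein for eIF2, had 10.9 and 7.52 TPM (-0.48). None of them passed 2-fold, and the order EIF1, EIF1B, EIF1AD, EIF1AX and EIF5 from high to low was the same in both libraries.

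The 3 subunits of eIF2 were unequal in level. EIF2S1, the subunit whose phosphorylation by stress kinases lowers translation, was listed at 17.8 and 11.0 TPM (-0.64). EIF2S2 had 212 and 147 TPM (-0.52), and EIF2S3, which binds GTP and the initiator tRNA, had 161 and 145 TPM (-0.15, or 0.05 with rescaled TPM). EIF2S2 mRNA was thus 11.9 times the level of EIF2S1 mRNA in control cells and 13.4 times in GDF1 cells. The 5 subunits of eIF2B, the exchange factor that recharges eIF2 with GTP, stayed closer together, from EIF2B2 with 19.4 and 15.5 TPM (-0.31) to EIF2B4 with 59.1 and 65.8 TPM (0.15). EIF2A and EIF2D, which can carry initiator or other tRNAs without eIF2, had 29.2 and 26.3 TPM (-0.14) and 62.2 and 59.3 TPM (-0.07), values that become positive with rescaled TPM.

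The eIF3 complex, a scaffold of 13 subunits on the small ribosomal subunit, had the widest spread. EIF3F (ENSG00000175390, GRCh37 chromosome 11, 7991798 to 8023409, plus strand), a subunit with an MPN domain, was listed at 48.5 TPM in control and 154.8 TPM in GDF1 cells. This was a 3.19-fold TPM ratio and a change of 1.65, the highest of all members, and its rank among all genes by TPM went from 2490 to 870. Its partner in the MPN pair, EIF3H, had 73.0 and 41.3 TPM (-0.81), so the EIF3F to EIF3H ratio went from 0.665 to 3.75.

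EIF3A (ENSG00000107581, GRCh37 chromosome 10, 120793182 to 120840329, minus strand) encodes the largest subunit, which organises the complex. It fell from 27.6 to 12.9 TPM, a 2.14-fold lower level and a change of -1.04. Of the subunits between these extremes, EIF3E (222 and 138 TPM, -0.68) and EIF3J (41.7 and 24.3 TPM, -0.75), a loosely bound subunit, stood on the low side, and EIF3I had 281 and 231 TPM (-0.28). EIF3G, an RNA-binding subunit, was the most abundant, with 585 and 953 TPM (0.70). EIF3K had 523 and 723 TPM (0.47) and its partner EIF3L 127 and 184 TPM (0.53), although 41.2% of the 100-base windows of EIF3L also occur in other genes, among them EIF3LP2. EIF3B, EIF3D and EIF3M each had nearly the same TPM in both libraries, with changes of 0.03, -0.03 and 0.02, and those of EIF3B and EIF3M stay positive while that of EIF3D becomes positive (0.17) with rescaled TPM.

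The mRNA levels of the 13 subunits were therefore less even in GDF1 cells. The highest was 21.2 times the lowest in control and 73.9 times in GDF1 cells, with EIF3G and EIF3A as the pair in both. The standard deviation of log2 TPM over the subunits was 1.39 and 1.77. Among the 8 subunits of the PCI and MPN core, 4 had values above 0 and 4 below 0, and the same core holds both the member that rose most and EIF3A.

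**Figure D3:**
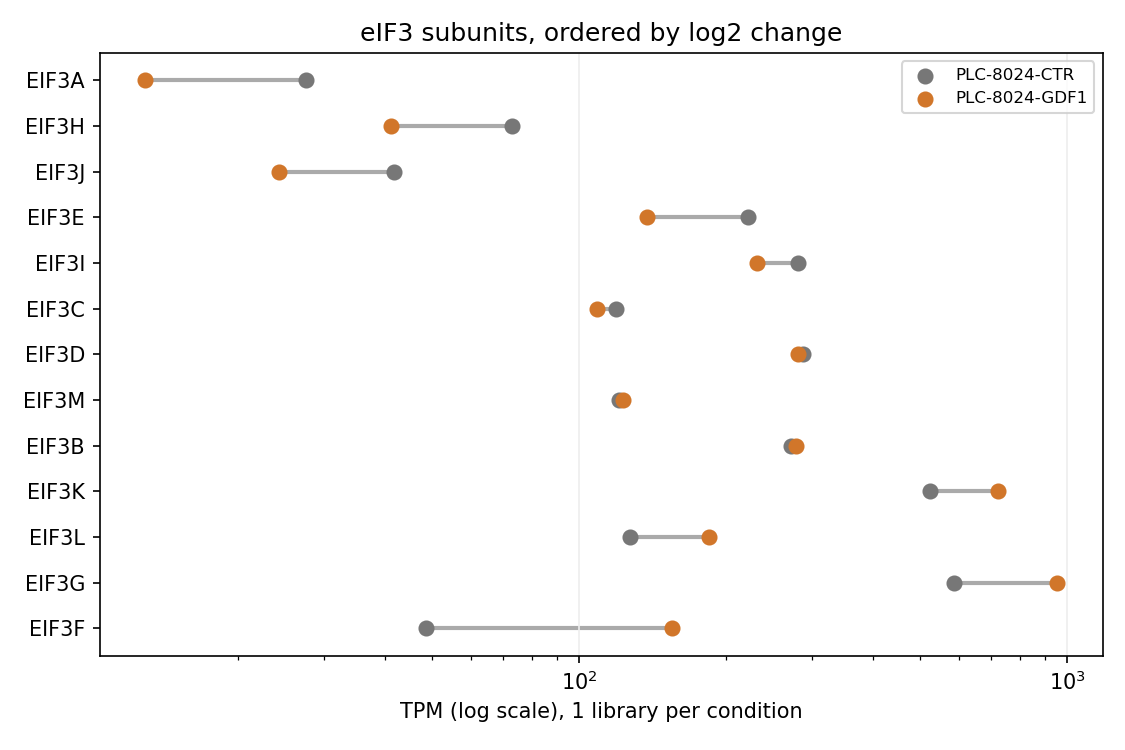
TPM (log scale) of the 13 eIF3 subunits in control (grey) and GDF1 (orange) cells, 1 library each, ordered by log2 change. EIF3A at the top went from 27.6 to 12.9 TPM and EIF3F at the bottom from 48.5 to 154.8 TPM; EIF3G was the highest and EIF3A the lowest in both libraries.

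A 14th eIF3 gene, EIF3CL, is a near-identical copy of EIF3C. In their annotated transcripts 94.9% of the 100-base windows of EIF3CL and 48.3% of those of EIF3C also occur in another gene, so how reads were divided between them is uncertain. EIF3C was listed at 119 and 109 TPM and EIF3CL at 144 and 98.0 TPM. Added up, the pair had 263 TPM in control and 207 TPM in GDF1 cells, a log2 ratio of -0.35. EIF3F shared 1.84% of its windows, with the pseudogene EIF3FP3, and EIF3A and EIF3G shared none.

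In the eIF4F group, the helicase paralogs went different ways. EIF4A2 (ENSG00000156976, GRCh37 chromosome 3, 186500994 to 186507686, plus strand) fell from 70.1 to 22.6 TPM, 3.10-fold lower and the lowest change of all members at -1.59. EIF4A1, the main form in many dividing cells, had 435 and 488 TPM (0.16). EIF4A3, a helicase of the exon junction complex rather than of eIF4F, had 65.7 and 43.2 TPM (-0.59).

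The EIF4A1 to EIF4A2 ratio went from 6.21 to 21.6. EIF4A1 supplied most of the pair's mRNA, and their sum was 505 TPM in control and 511 TPM in GDF1 cells, a log2 ratio of 0.01. All 100-base windows of EIF4A1 also occur in annotated readthrough transcripts of its locus, which were listed separately: SENP3-EIF4A1 at 0 in control and 13.3 TPM in GDF1 cells, and AC016876.2 at 20.4 and 14.7 TPM. EIF4A2 shared 3.35% of its windows, those of small nucleolar RNAs in its introns, of which SNORA4 was listed at 1.08 and 0.191 TPM.

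EIF4E, the cap-binding subunit, was the least abundant core component of eIF4F, with 3.18 TPM in control and 1.27 TPM in GDF1 cells. Its plain TPM ratio was 2.50-fold lower, whereas its change with the pseudocount was -0.88, within 2-fold, and 17.1% of its windows occur in other genes, mostly EIF4EP2. The related EIF4E2, a weaker cap binder, had 79.4 and 71.6 TPM (-0.15, or 0.06 with rescaled TPM), which was 56.4 times EIF4E in GDF1 cells. EIF4E was thus the lowest of the eIF4F genes in both libraries.

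The scaffolds kept their order of level. EIF4G1 had 169 and 113 TPM (-0.57). EIF4G2, which lacks the eIF4E-binding part, had 75.3 and 50.0 TPM (-0.58), and EIF4G3 had 14.5 and 7.88 TPM (-0.81). The helpers had values below 0 as well, within 2-fold. EIF4H and EIF4B, which stimulate the helicase, had 116 and 71.8 TPM (-0.69) and 80.2 and 62.6 TPM (-0.35). EIF4ENIF1, which carries eIF4E into the nucleus, had 7.53 and 4.23 TPM (-0.71).

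The 4E-BPs bind eIF4E and keep it from eIF4G until mTORC1 phosphorylates them. EIF4EBP1 was among the 5 most abundant members, with 779 TPM in control and 895 TPM in GDF1 cells (0.20), and ranked 177th and 173rd of all genes. EIF4EBP2 had 12.5 and 9.67 TPM (-0.34), and EIF4EBP3 had 6.23 and 8.76 TPM (0.43), with 69.2% of its windows in the readthrough gene ANKHD1-EIF4EBP3 (19.2 and 24.3 TPM). At the mRNA level EIF4EBP1 stood at 245 times EIF4E in control and 705 times in GDF1 cells, a ratio that rests on an EIF4E value near the 1 TPM minimum.

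**Figure D4:**
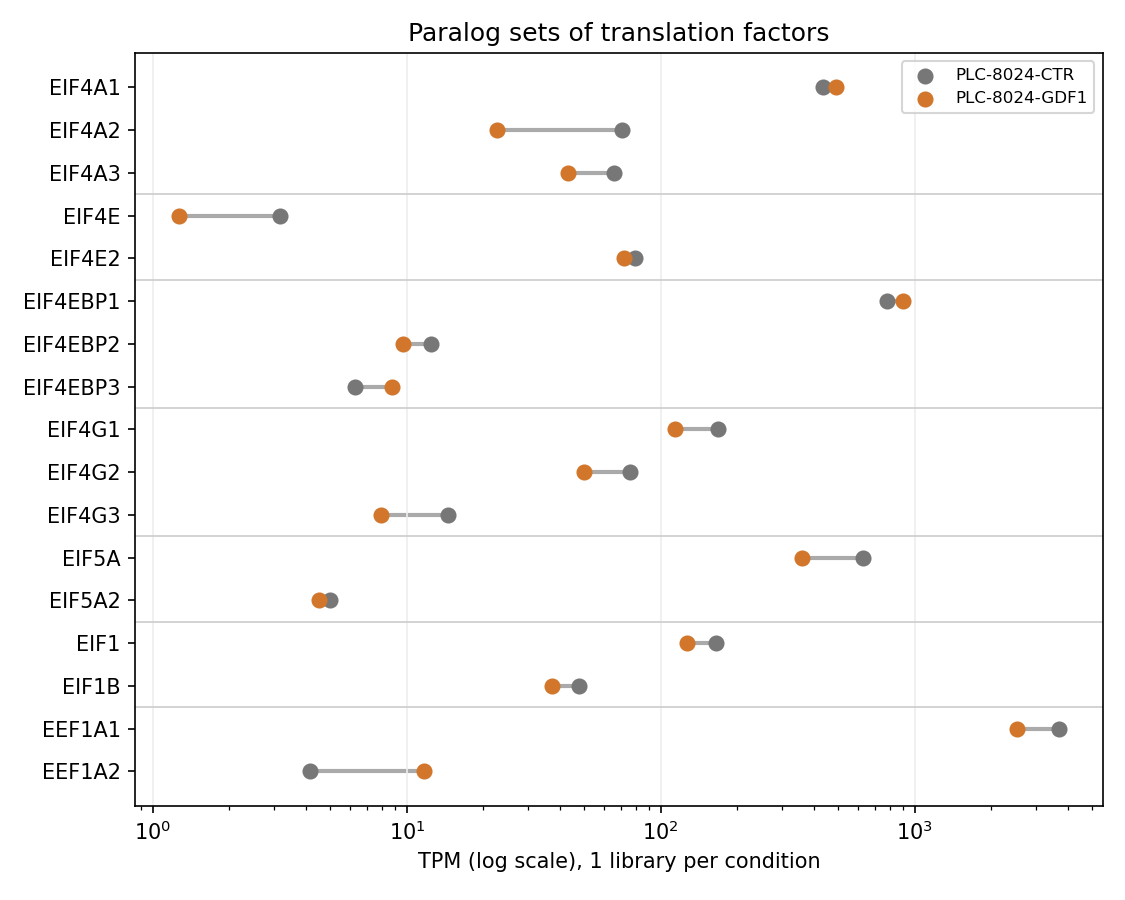
TPM (log scale) of the members of 7 paralog sets in control (grey) and GDF1 (orange) cells, 1 library each, with lines between sets. The less abundant paralog carried the larger change in the EIF4A pair (EIF4A2, 70.1 to 22.6 TPM) and in the EEF1A pair (EEF1A2, 4.16 to 11.7 TPM), and the more abundant one in the EIF5A pair (EIF5A, 627 to 361 TPM).

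Of the late factors, EIF6, which keeps the large subunit from joining too early, was listed at 680 TPM in control and 673 TPM in GDF1 cells (-0.01, or 0.19 with rescaled TPM). EIF5B, the GTPase of subunit joining, had 28.7 and 22.9 TPM (-0.31). EIF5A, the hypusine-bearing factor that relieves stalled ribosomes, had 627 and 361 TPM (-0.80, or -0.59 with rescaled TPM). Its paralog EIF5A2 had 4.99 and 4.52 TPM (-0.12, or 0.05 with rescaled TPM), so the EIF5A to EIF5A2 ratio was 126 and 79.8.

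The elongation factors contained the most abundant members. EEF1A1 (ENSG00000156508) was listed at 3682 TPM in control and 2531 TPM in GDF1 cells (-0.54), and ranked 35th and 61st of all genes. EEF2 had 1508 and 1034 TPM (-0.54). The EEF1A1 to EEF2 ratio was accordingly 2.44 in control and 2.45 in GDF1 cells.

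Of the eEF1B subunits, EEF1B2 had 687 and 460 TPM (-0.58) and EEF1G 1447 and 1034 TPM (-0.48). EEF1D, the other exchange subunit, had 330 and 383 TPM (0.21), so the EEF1D to EEF1B2 ratio went from 0.480 to 0.833. EEF1E1, which belongs to the multi-tRNA synthetase complex rather than to eEF1B, had 65.5 and 39.8 TPM (-0.71), and 31.0% of its windows occur in EEF1E1-BLOC1S5. The changes of EEF1A1, EEF2, EEF1B2 and EEF1G kept their negative sign with rescaled TPM, at -0.33, -0.34, -0.37 and -0.28.

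EEF1A2 (ENSG00000101210, GRCh37 chromosome 20, 62119366 to 62130592, minus strand), the form normally found in muscle and neurons, rose from 4.16 to 11.7 TPM, a 2.81-fold TPM ratio and a change of 1.30. It remained a small part of the eEF1A mRNA, since EEF1A1 was 885 times EEF1A2 in control and 217 times in GDF1 cells. EEF1A2 shared none of its windows with another gene. EEF1A1 shared 14.4%, mostly with EEF1A1P5 (477 and 354 TPM) and EEF1A1P6 (172 and 129 TPM), and the log2 ratio of EEF1A1 summed with 6 such pseudogenes was -0.51. All windows of EEF1G occur in the readthrough gene AP002990.1, which was listed at 37.9 and 25.8 TPM.

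The enzymes that modify the elongation factors were low in level. EEF2K, the kinase that inactivates eEF2, had 4.32 TPM in control and 2.46 TPM in GDF1 cells (-0.62), and EEF2KMT, a lysine methyltransferase of eEF2, 22.7 and 21.6 TPM (-0.07, or 0.13 with rescaled TPM). The lysine methyltransferases of eEF1A spread to both sides. EEF1AKMT2 had 13.6 and 7.33 TPM (-0.81), EEF1AKMT1 4.93 and 8.10 TPM (0.62) and EEF1AKMT3 1.66 and 1.91 TPM (0.13).

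The GC content of the transcripts moved with the changes. Among the 20 members with the lowest GC content (33.9% to 43.2%) the median change was -0.66, against -0.43 for all genes in that range. It was -0.31 in the middle group (19 genes, all genes -0.26) and -0.02 in the highest (49.7% to 64.8%, 20 genes, all genes -0.06). The Spearman correlation of change and GC content was 0.47 over the 59 members and 0.29 over 14640 genes, values that come from the same 2 libraries and describe them only. The part of GC content in the changes was not tested. After removal of the trend over all genes, EIF3F (2.04), EEF1A2 (1.13) and EIF4A2 (-1.16) stayed past 2-fold and EIF3A (-0.69) did not. EIF3F stood farthest from the genes of like GC content, although its value of 41.3% belongs to a longest annotated transcript of 8434 bases. The value of EIF4A2 (38.7%) likewise belongs to a longest annotated transcript, of 5327 bases, which includes small nucleolar RNA sequence.

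**Figure D5:**
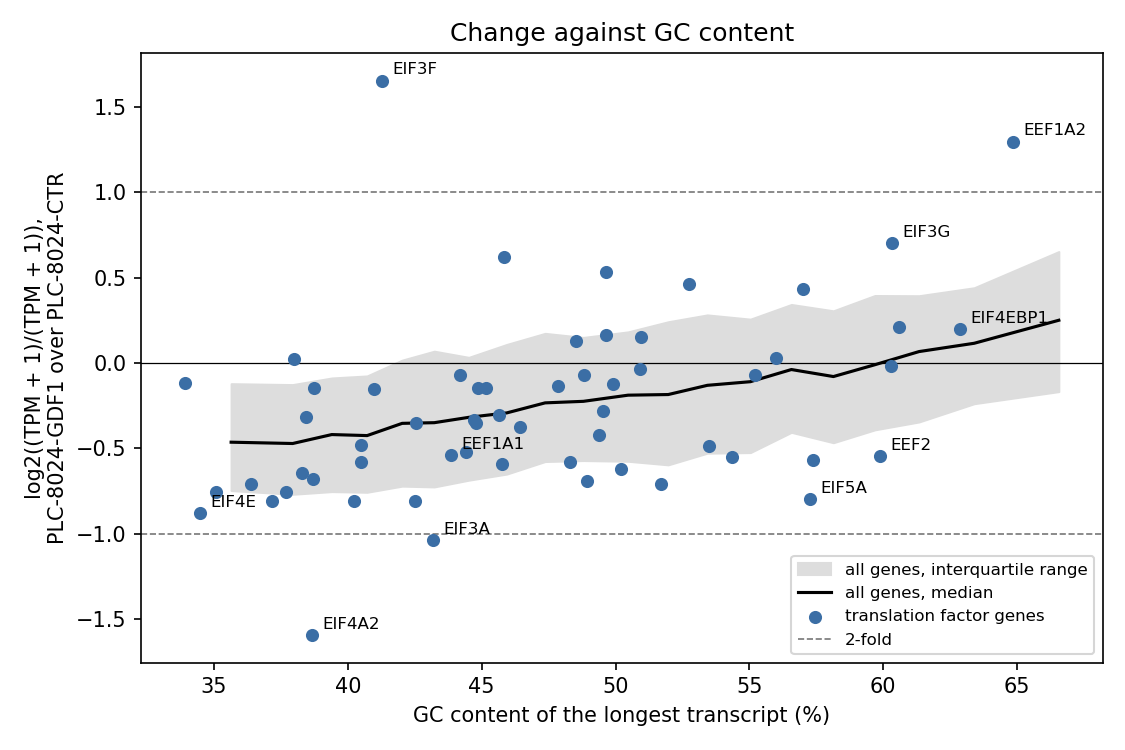
Log2 change (y axis) of the 59 genes (points) against the GC content of their longest annotated transcript in percent (x axis), over the median (line) and the interquartile range (grey) of all genes in bins of GC content. EIF3F at 1.65 and EIF4A2 at -1.59 lie outside the 2-fold lines at low GC content and EEF1A2 at 1.30 at high GC content; EIF3A at -1.04 lies near its line and within it once the trend is removed.

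The other genes of translation control were taken from lists of 56 genes by role, all of which reached 1 TPM. None was past 2-fold higher, where 4.82% of all genes were, and 9 (16.1%) were past 2-fold lower, where 9.61% of all genes were. Their median change was -0.43, against -0.20 for all genes. ETF1, the stop-codon release factor, fell from 40.3 to 11.0 TPM (-1.79), and GSPT2, a form of its partner eRF3, from 16.1 to 6.03 TPM (-1.28). GSPT1, the other eRF3 gene, was more abundant in both libraries, with 30.8 and 40.5 TPM (0.39). PDCD4, an inhibitor of eIF4A, fell from 14.7 to 4.49 TPM (-1.52), GIGYF2, which acts with EIF4E2 in repression, from 6.25 to 1.77 TPM (-1.39), and PAIP1, a partner of poly(A)-binding protein, from 21.1 to 9.29 TPM (-1.10). The mitochondrial factors MTRF1L (9.36 to 2.37 TPM, -1.62) and GFM1 (6.18 to 2.32 TPM, -1.11) fell as well. Of the 8 mitochondrial factors 6 had values below 0, but their sum was higher in GDF1 cells, with 551 and 674 TPM. Most of that sum was TUFM, with 424 and 588 TPM (0.47).

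Around eIF5A and eIF2, ODC1, the first enzyme of the polyamine synthesis that feeds hypusine formation, fell from 392 to 186 TPM (-1.07), and PPP1R15B, a targeting subunit of the eIF2 phosphatase, from 6.49 to 2.55 TPM (-1.07). The 4 kinases of eIF2 stayed within 2-fold on the scale with the pseudocount. EIF2AK1, activated by lack of haem, had 65.7 and 71.7 TPM (0.12), and EIF2AK4, activated by amino acid shortage, 12.2 and 11.9 TPM (-0.04, positive with rescaled TPM). EIF2AK2, activated by double-stranded RNA, had 2.91 and 2.35 TPM (-0.22, or 0.20 with the GC trend removed), and EIF2AK3, the kinase of endoplasmic reticulum stress, 2.69 and 1.30 TPM (-0.69), which was 2.08-fold lower by the plain TPM ratio.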

How the data were processed

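Messenger RNA was isolated on poly(T) beads from PLC-8024 cells with GDF1 or control vector and sequenced in paired ends. Per the study's methods and the submitters' processing notes, the authors checked reads with FastQC 0.11.2, trimmed them with Trimmomatic 0.36, aligned them to hg19 with HISAT2 2.1.0 and computed TPM with StringTie 1.3.3b, and bedtools 2.26.0 is also named. The deposited TPM values, 1 per gene and library, follow Ensembl identifiers while the methods name RefSeq, and how shared reads were divided is not given in the sources used here. A value of 0.0001 stands for 0. TPM sums to the same total in each library, so depth is unknown.

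Libraries were joined on the gene identifier and grouped by their genotype labels, Control and GDF1-overexpression. With 1 library per condition no test was made. Log2 changes used a pseudocount of 1, which makes the change of low genes smaller, and the genes that reached 1 TPM in at least 1 library. Positions, gene types and GC content of the longest transcript came from GENCODE v44 lifted to GRCh37, which held 55726 of the identifiers. Windows of 100 bases from all annotated transcripts were compared between genes. The alternatives were a pseudocount of 0.1, a plain TPM ratio, TPM rescaled by 1.15 (the median over genes with at least 5 TPM), a lowess GC trend (span 0.3) removed, and subsets of members. Scripts ran under Python 3.11.15 with pandas 2.3.3, numpy 2.4.6, statsmodels 0.14.6 and matplotlib 3.10.9, and were tested on simulated data.

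The members and lists were chosen with earlier results of these data known. Every member could be named. Values are given for members past 2-fold, the 5 highest in PLC-8024-CTR, those nearest the minimum, complex subunits and paralog sets. Of the other lists, values are given for genes past 2-fold, the eIF2 kinases, GSPT1 and TUFM. EIF4EBP1, EIF4EBP2 and EIF4EBP3 stayed in because they are protein-coding, although their names end like those of pseudogenes. Protein sequences were not used here.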

Additional observations from a re-analysis of the deposited data

How the results depend on the processing

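With a pseudocount of 0.1 or a plain TPM ratio no member changed sign and EIF4E joined the members past 2-fold lower, 3 in all. The number of members past 2-fold higher was 2 under every alternative. The number past 2-fold lower was 1 with rescaled TPM and with the GC trend removed, where EIF3A dropped out (-0.85 and -0.69), and 1 when members overlapping another expressed gene were left out, which removed EIF4A2. The members' median was -0.15 with rescaled TPM, against -0.02 for all genes and -0.08 for protein-coding genes. It was -0.03 with the GC trend removed, against -0.01 and -0.05. With these 2 alternatives, in that order, the median turned to 0.057 and 0.11 for eIF2 with eIF2B, 0.10 and 0.27 for eIF2A with eIF2D, 0.12 and 0.10 for eIF3, and 0.13 and 0.031 for the modifying enzymes, and for subunit joining with eIF5A it was 0.045 with the GC trend removed. The other translation control genes past 2-fold lower then numbered 5 and 4 in place of 9, and 12 with a pseudocount of 0.1 or a plain TPM ratio. Over all genes, 720 of 14929 were higher and 1434 lower past 2-fold. Rescaled TPM gave 1040 higher and 1022 lower, and removal of the GC trend 921 and 888 of 14640. Under the smaller pseudocount 1167 of 14929 were higher and 2315 lower, and under the plain TPM ratio 1167 and 2380 of 14810. The count past 2-fold lower thus moved in the same direction over all genes as in the members and the other lists. The shares past 2-fold given above for these sets belong to the deposited scale and a pseudocount of 1. Rescaling raises all values by construction, and removal of the GC trend raises those of genes with low GC content and lowers those with the highest. No paired analysis was possible because only 1 library per condition was made. Without depth or replicates, the precision of each TPM is unknown, and EIF4E, EEF1AKMT3, EEF1A2, EEF2K, EEF1AKMT1 and EIF5A2 were each under 5 TPM in the control library.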

Other observations

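Other parts of the translation machinery were listed with different values. The 77 cytosolic ribosomal protein genes had a median log2 change of 0.06, with 43 values above 0 and 34 below, and none was past 2-fold in either direction. Their summed TPM was 16.2% of the total in the control and 17.4% in the GDF1 library. RPL15 had the lowest change (-0.77) and RPL23 the highest (0.59). The median of EEF1A1, EEF2 and the other eEF1 genes was -0.54 on the same scale, and the difference between these sets was not tested. The 20 cytosolic aminoacyl-tRNA synthetases, which charge the tRNAs that eEF1A delivers, had a median of -0.39, with 15 values below 0 and 2 of 20 past 2-fold lower, where 63.3% of all genes were below 0 and 9.61% past 2-fold lower, and ranged from IARS, the isoleucine enzyme, at -1.53 to WARS, the tryptophan enzyme, at 0.86. These sets were chosen after results of the data were known.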
